A study of Mus musculus with 19 samples.

Results

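The 10 genes described here are targets or companions of NRF2, a transcription factor that answers oxidative and chemical stress. They were taken by name, as 7 redox and detoxification genes (Nqo1, Gclc, Gclm, Txnrd1, Srxn1, Hmox1 and Ephx1) and 3 drug exporters (Abcc3, Abcc4 and Abcb1b), out of 22180 genes measured. Members and the other gene lists were chosen with earlier results of these data known, so their counts beside shares of all genes are a description. Each member had 1 probe set on the array, so no choice between probe sets was needed. RNA of whole mouse liver was hybridised to 19 one-colour Affymetrix arrays in a study named for Kielin/chordin-like protein (Kcp), a secreted modulator of BMP and TGF-beta signals. The animals' age is given as 2 to 3 months, and the diet had lasted 4 weeks at tissue collection. WT, KO and TG livers were each sampled on a normal diet (ND) and on a high-fat diet (HFD), with 3 arrays per group and 4 for TG on HFD. The alleles, strain, sex, the promoter that drives the transgene, the litters, the hour of harvest and the meaning of the 3 genotype codes are not given in the sources used here. Each title holds a number of its own, which was read as 1 animal though the labels do not say so, and p-values measure only the spread between these samples.

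In an unstressed cell KEAP1 holds NRF2 (gene Nfe2l2) in the cytoplasm and has it degraded through CUL3. Electrophiles and oxidants modify KEAP1, after which NRF2 enters the nucleus, pairs with a small MAF protein and binds antioxidant response elements. BACH1 competes for the same elements and represses Hmox1 in particular. In liver the targets make glutathione, restore thioredoxin and peroxiredoxins, reduce quinones, open epoxides and carry conjugates out of the hepatocyte across the sinusoidal membrane. Several of them, among them Ephx1, Abcc3 and Nqo1, also answer the drug receptors CAR and PXR.

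Promoter windows of 4 members are shown because 3 of them (Nqo1, Srxn1 and Ephx1) were lower in TG livers on HFD while Gclm was not called in any comparison. Each window runs from 250 bases before to 50 bases after a transcription start, 5′ to 3′ on the gene's strand, from RefSeq (GRCm38.p6). Capitals mark the core of the antioxidant response element, TGACNNNGC, or an AP-1 site, TGANTCA, on either strand. The windows lie at chr8:107403156-107403455 on the minus strand for Nqo1, at chr2:152105274-152105573 on the plus strand for Srxn1, at chr1:181017520-181017819 on the minus strand for Ephx1, and at chr3:122245307-122245606 on the plus strand for Gclm.
Nqo1: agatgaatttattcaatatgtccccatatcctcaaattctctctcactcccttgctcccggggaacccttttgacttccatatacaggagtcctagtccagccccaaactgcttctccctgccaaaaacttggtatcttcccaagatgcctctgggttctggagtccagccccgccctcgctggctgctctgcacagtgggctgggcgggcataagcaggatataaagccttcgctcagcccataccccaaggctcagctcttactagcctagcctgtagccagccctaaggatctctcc
Srxn1: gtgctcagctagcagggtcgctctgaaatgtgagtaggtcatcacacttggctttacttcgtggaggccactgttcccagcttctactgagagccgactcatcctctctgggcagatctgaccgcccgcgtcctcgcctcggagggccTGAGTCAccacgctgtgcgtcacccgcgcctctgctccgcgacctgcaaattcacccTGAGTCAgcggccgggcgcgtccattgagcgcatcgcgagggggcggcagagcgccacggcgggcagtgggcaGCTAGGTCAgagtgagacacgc
Ephx1: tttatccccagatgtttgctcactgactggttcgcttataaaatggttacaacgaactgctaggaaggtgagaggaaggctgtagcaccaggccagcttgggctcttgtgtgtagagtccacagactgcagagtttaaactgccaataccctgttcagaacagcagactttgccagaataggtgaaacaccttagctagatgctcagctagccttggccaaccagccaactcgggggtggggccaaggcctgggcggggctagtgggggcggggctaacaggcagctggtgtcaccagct
Gclm: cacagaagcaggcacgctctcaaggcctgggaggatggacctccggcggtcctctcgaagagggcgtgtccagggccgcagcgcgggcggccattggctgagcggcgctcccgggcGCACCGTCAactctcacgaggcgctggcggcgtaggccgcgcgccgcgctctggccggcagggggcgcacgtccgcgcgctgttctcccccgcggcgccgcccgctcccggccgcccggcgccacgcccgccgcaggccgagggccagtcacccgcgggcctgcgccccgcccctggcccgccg

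The RefSeq table held windows for 7 of the 10 members, 10 windows in all. TGACNNNGC was found for 4 of these 7 genes (Gclm, Txnrd1, Srxn1 and Abcc4), and in the windows of 14.0% of 27025 genes in the table. TGANTCA was found for 1 of the 7, Srxn1, and for 8.97% of all genes. Srxn1 held it as TGAGTCA at positions -102 and -45 from the start, and TGACNNNGC on the other strand at position 28. Looser forms of the element core were not searched. At -45 the bases after TGAGTCA are gc, so TGAGTCAGC there departs from TGACNNNGC only in the base after TGA. At -102 the bases that follow are cc. Whether either site acts as an element was not tested. In Gclm the core lay on the other strand at position -134. The E-box CACGTG, to which clock factors bind, was found for Abcc4 alone among the 7, and for 8.09% of all genes. Neither of the first 2 motifs was in the Nqo1 or the Ephx1 window. Sequence outside the windows was not searched, so a motif further from the start would have been missed. Whether Nqo1 or Ephx1 has an element elsewhere was not tested.

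Array medians lay between 0.98 and 1.07 on the log2 scale. Hepatocyte markers were high on every array, with albumin between 12.26 and 12.51, and none of 8 such markers passed the test in any comparison. Kcp averaged 5.56 in TG on ND and 5.66 on HFD, against 2.55 and 2.23 in WT and 2.03 and 2.01 in KO, where it was dim and does not check the KO label. Of 16 Kupffer cell and macrophage markers 15 were higher in TG than in WT on each diet, where 0.924% of all genes were on ND and 1.68% on HFD. A clock score, set as the average level of 9 evening-phase clock genes less that of 5 morning-phase ones, averaged -0.60 in WT, 1.67 in KO and -1.19 in TG on ND. On HFD it averaged 1.97, 2.18 and 1.84 in the same order. In KO on ND the evening-phase genes did not all move together. Against WT 7 of the 9 were higher and 1, Nr1d1, was lower (-2.30, adjusted p = 0.00278 by limma), where 2.98% of all genes changed. The counts were the same against TG, with Nr1d1 at -2.01 (adjusted p = 0.00613), where 4.2% of all genes changed. The arrays of WT HFD replicate 1 and TG HFD replicate 2 correlated least with arrays outside their group, at means of 0.963 and 0.965. In whole tissue, fewer cells of a type and less RNA per cell cannot be told apart.

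Of the 9 comparisons of 2 groups, none set as the main one beforehand, TG against WT on the high-fat diet held the most calls of members. It split the 10 genes. Nqo1, Srxn1, Ephx1 and Abcc3 were lower in TG by 1.74-fold to 2.66-fold, Hmox1 was 3.03-fold higher, and the other 5 did not pass. Thus 5 of 10 members changed at an adjusted p under 0.05, where 3.57% of all genes did, 1.88% being lower and 1.68% higher. As the members were chosen with earlier results of these data known, this excess is a description and no test of the set. The median difference of the 10 was -0.65, and that of all genes 0.00. TG and WT arrays were fully apart for 4 members, 3 lower and 1 higher, where 12.3% of all genes were. The numbers in the titles fall in separate ranges for TG and WT on HFD. If these mark cohorts, which the labels do not say, genotype and cohort cannot be told apart here.

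**Figure D1:**
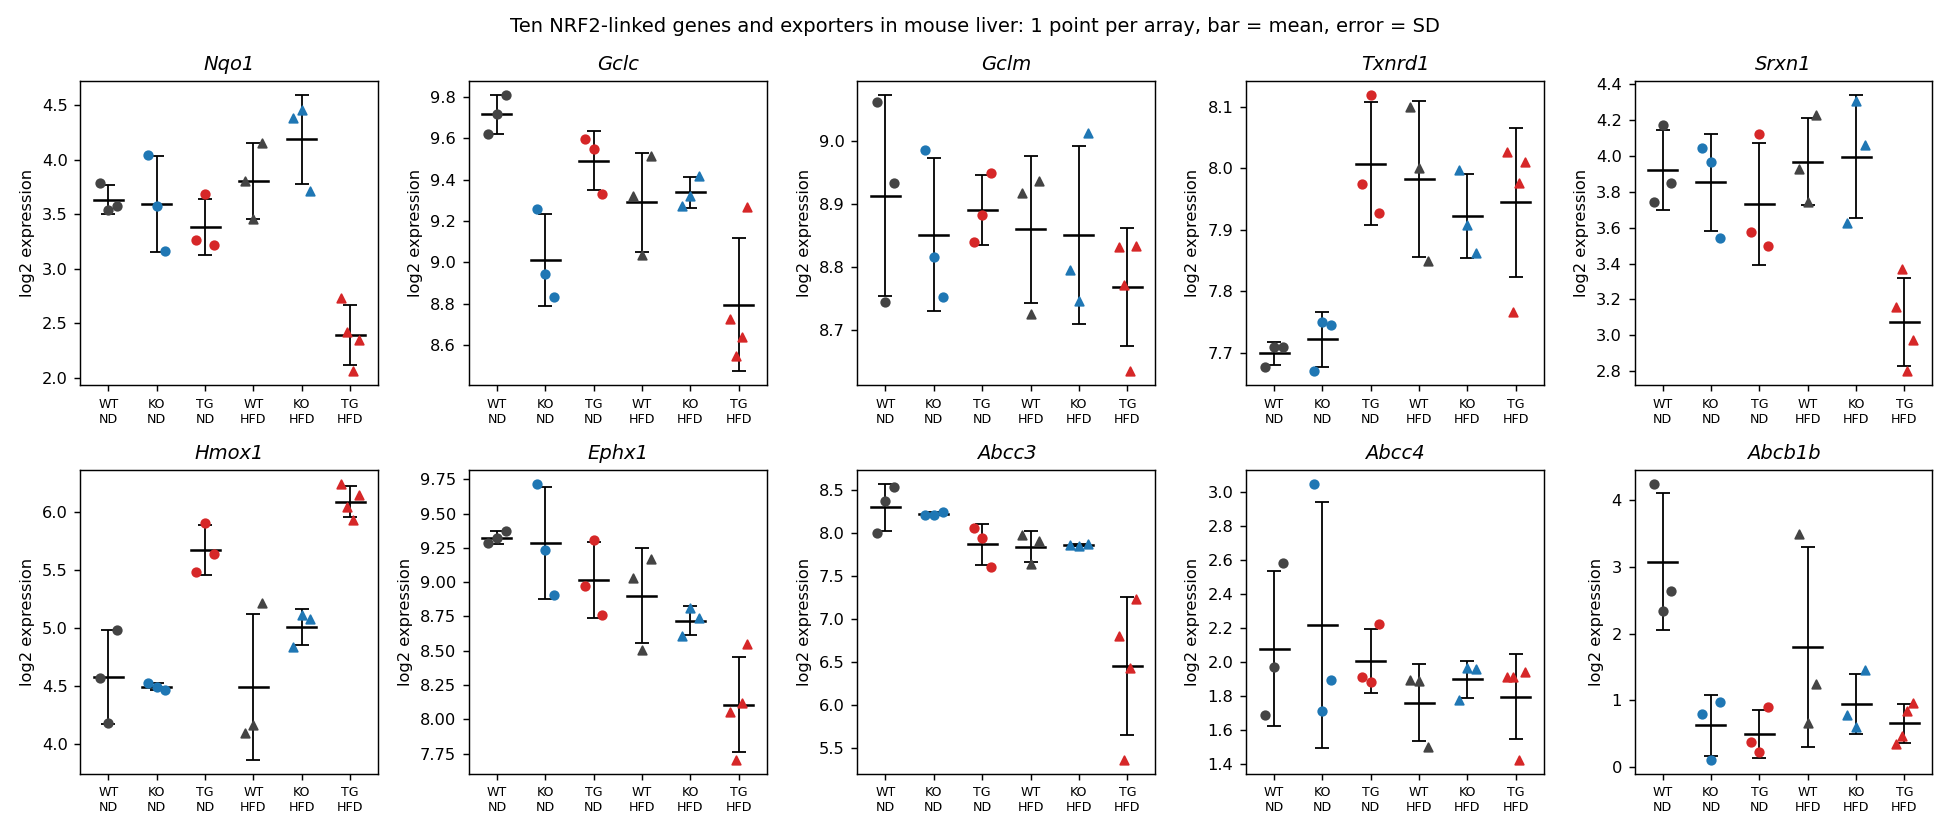
Log2 expression of the 10 genes (vertical axes, each with its own range) in the 6 groups (horizontal axes), 1 point per array, with circles for ND, triangles for HFD, black bars for group means and error bars for SD (n = 3, or 4 for TG HFD). Nqo1, Srxn1 and Abcc3 on the 4 TG HFD arrays lie below all 15 other arrays, and Hmox1 on the 7 TG arrays lies above all 12 others.

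Nqo1 encodes the quinone reductase that turns quinones into hydroquinones in a single step and is the customary readout of NRF2. On HFD it read 2.74, 2.42, 2.06 and 2.35 in TG, 3.80, 3.46 and 4.15 in WT, and 4.38, 4.46 and 3.72 in KO (log2). The TG arrays were the lowest of all, with no overlap with either genotype. The TG mean of 2.39 ± 0.28 (SD, n = 4) was 1.41 below the WT mean of 3.80 ± 0.35 (SD, n = 3; SE of the difference 0.23, adjusted p = 0.00136). KO exceeded TG by 1.79 (SE 0.23, adjusted p = 0.000225), a comparison that shares the TG arrays with the former. On ND the arrays of the 3 genotypes overlapped, at 3.79, 3.54 and 3.57 in WT, 4.04, 3.57 and 3.17 in KO and 3.26, 3.68 and 3.22 in TG. The difference between TG and WT there was -0.25 (95% interval -0.75 to 0.26, adjusted p = 0.847).

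Ephx1, the microsomal epoxide hydrolase, opens epoxides made by cytochromes P450 into diols. On HFD it read 8.05, 7.70, 8.12 and 8.55 in TG, 9.03, 8.51 and 9.17 in WT and 8.61, 8.81 and 8.74 in KO. TG HFD replicate 4 lay just above the lowest WT array, so the groups overlapped by 1 array on each side. TG was lower than WT by 0.80 (SE 0.21, adjusted p = 0.0381), a call that was lost without 5 of the 7 arrays, all but WT HFD replicate 2 and TG HFD replicate 4 (highest adjusted p = 0.175, without WT HFD replicate 3). The difference between KO and TG of 0.61 did not pass (SE 0.21, adjusted p = 0.149). On ND all 9 arrays lay between 8.76 and 9.72.

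Glutathione synthesis is limited by glutamate-cysteine ligase, made of a catalytic subunit, Gclc, and a modifier subunit, Gclm, that raises its affinity for glutamate. Gclc passed the test in 2 comparisons and Gclm in none. Gclc read 9.62, 9.72 and 9.81 in WT on ND and 9.26, 8.94 and 8.83 in KO on ND, so that all KO arrays were the lower ones. This fall of 0.70 (SE 0.17, adjusted p = 0.03) was lost without 5 of the 6 arrays, all but KO ND replicate 1 (highest adjusted p = 0.127, without KO ND replicate 3). On ND TG read 9.60, 9.55 and 9.33, and on HFD 8.73, 8.55, 8.64 and 9.27, where replicate 4 stood nearest to WT (9.32, 9.04 and 9.51) and KO (9.27, 9.32 and 9.42). The difference between TG and WT on HFD was -0.49 (SE 0.16, adjusted p = 0.107). Gclm stayed between 8.64 and 9.06 on all 19 arrays and passed in none of the 9 comparisons of 2 groups. Its differences there lay between -0.12 and 0.08, and their 95% intervals, taken 1 comparison at a time, between -0.35 and 0.31.

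Thioredoxin is kept reduced by thioredoxin reductase 1, Txnrd1, and oxidised peroxiredoxins are rescued by sulfiredoxin, Srxn1. Srxn1 on HFD read 3.16, 3.37, 2.80 and 2.97 in TG, 3.93, 3.75 and 4.23 in WT and 3.62, 4.31 and 4.06 in KO. Here too the 4 TG arrays were the lowest of all 19. TG was lower than WT by 0.89 (SE 0.20, adjusted p = 0.0154), a call lost without WT HFD replicate 1 or WT HFD replicate 3 (highest adjusted p = 0.0935). KO was higher than TG by 0.92 (SE 0.20, adjusted p = 0.0169), lost without KO HFD replicate 2 or 3 (highest adjusted p = 0.115). Txnrd1 passed in none of the 9 comparisons (smallest adjusted p = 0.168). It read 7.68, 7.71 and 7.71 in WT and 7.67, 7.75 and 7.75 in KO on ND, and between 7.77 and 8.12 on the arrays of the other 4 groups. Between TG and WT its difference was 0.31 on ND (adjusted p = 0.235) and -0.04 on HFD (adjusted p = 0.915).

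Hmox1, heme oxygenase 1, breaks heme down to biliverdin, iron and carbon monoxide, and in liver is made strongly by Kupffer cells, which take up old red cells. Among the members it alone was called higher in TG than in WT. On ND it read 5.48, 5.90 and 5.64 in TG, 4.57, 4.18 and 4.98 in WT and 4.53, 4.50 and 4.46 in KO. On HFD it read 6.24, 6.04, 5.93 and 6.14 in TG, 4.10, 4.16 and 5.22 in WT and 4.83, 5.11 and 5.08 in KO. All 7 TG arrays lay above all 12 others, a separation found for 0.361% of all genes. TG exceeded WT by 1.09 on ND (SE 0.24, adjusted p = 0.024) and by 1.60 on HFD (SE 0.22, adjusted p = 0.000442), and KO was below TG by 1.18 on ND (adjusted p = 0.00654) and 1.08 on HFD (adjusted p = 0.0121). Of these calls, TG against WT on ND was lost without 4 of the 6 arrays, WT ND replicates 1 and 2 and TG ND replicates 2 and 3 (highest adjusted p = 0.142), and KO against TG on HFD without KO HFD replicate 1 (adjusted p = 0.0684).

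Macrophage markers moved with Hmox1. The mean of the 16 Kupffer cell and macrophage markers lay between 5.54 and 6.10 on the TG ND arrays and between 5.44 and 5.97 on the TG HFD arrays. It lay between 4.15 and 4.31 in WT on ND, 4.16 and 4.41 in WT on HFD, 4.15 and 4.68 in KO on ND and 4.39 and 4.96 in KO on HFD. Clec4f, a lectin of Kupffer cells, rose in TG by 1.43 on ND and 1.42 on HFD, and the scavenger receptor Marco by 3.21 and 3.75, with lowest arrays of 5.84 and 1.26. Marco also passed as lower in KO than in WT on ND (-1.76) and as lower on HFD than on ND in WT (-1.81). KO was below TG in 12 of the 16 markers on ND and in 5 on HFD, where 2.49% and 0.897% of all genes were. The part of these cells in the Hmox1 result was not tested. WT HFD replicate 3 and WT ND replicate 3 had the highest Hmox1 of their groups, 5.22 and 4.98, at marker means of 4.41 and 4.17.

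**Figure D2:**
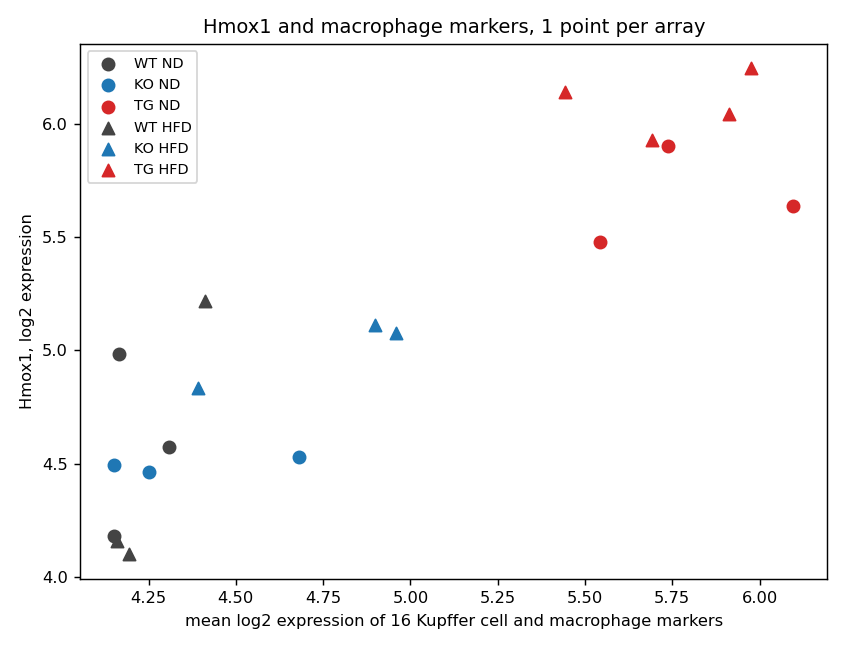
Hmox1 (vertical axis, log2 expression) against the mean log2 expression of 16 Kupffer cell and macrophage markers (horizontal axis), 1 point per array, coloured by genotype, with circles for ND and triangles for HFD. The 7 TG arrays form a group at high values of both, with marker means from 5.44 and Hmox1 from 5.48, apart from the 12 WT and KO arrays.

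Abcc3 (MRP3) and Abcc4 (MRP4) carry glucuronides, sulfates and bile acids from the hepatocyte back to blood, and Abcb1b (MDR1B) exports bulky lipophilic drugs. Abcc3 on HFD read 6.81, 5.37, 6.43 and 7.24 in TG, 7.98, 7.65 and 7.91 in WT and 7.86, 7.85 and 7.87 in KO. The 4 TG arrays were again the lowest of all 19, and they spread most, with an SD of 0.80 against 0.18 in WT. Abcc3 was lower in TG than in WT by 1.38 (SE 0.28, adjusted p = 0.00913), lost narrowly without WT HFD replicate 1 (adjusted p = 0.0514), and 2.64-fold higher in KO than in TG (adjusted p = 0.0108). Nqo1, Srxn1 and Abcc3 were thus the members below all 15 other arrays in TG on HFD, which held for 0.397% of all genes. Abcc4 was dim and read between 1.42 and 3.05 with no call (smallest adjusted p = 0.756).

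Abcb1b was higher in WT than in KO and TG livers on ND. It read 4.24, 2.34 and 2.64 there, 0.80, 0.11 and 0.97 in KO and 0.38, 0.22 and 0.90 in TG, so that all WT arrays were higher. KO was lower than WT by 2.45 (SE 0.55, adjusted p = 0.0195), and TG by 2.57 (SE 0.55, adjusted p = 0.0228), 2 comparisons that share the WT arrays. The first call was lost without WT ND replicate 1 or KO ND replicate 2 (highest adjusted p = 0.107), and the second without WT ND replicate 1 or any TG array (highest adjusted p = 0.117). On HFD it read 3.50, 0.66 and 1.24 in WT, 0.78, 0.61 and 1.46 in KO and 0.34, 0.48, 0.85 and 0.96 in TG, where the high WT value is that of WT HFD replicate 1. That array lay above 2 of the 3 WT ND arrays, and the difference between the diets in WT did not pass (-1.27, adjusted p = 0.387). Neither genotype differed from WT on HFD past the threshold (KO -0.85, adjusted p = 0.741; TG -1.14, adjusted p = 0.295). Abcb1b averaged under 2 on the log2 scale over all arrays, as did 56.5% of all genes, a range near background where array differences are compressed.

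Abcb1a, the close paralog of Abcb1b that makes MDR1A, went the other way in KO on ND. It read 3.39, 4.07 and 3.72 in KO, 1.86, 2.10 and 2.09 in WT and 1.53, 2.34 and 3.23 in TG. KO was higher than WT by 1.71 (SE 0.38, adjusted p = 0.0179), while the difference between TG and WT was 0.36 (adjusted p = 0.867). On HFD it averaged 3.44 in WT, 4.20 in KO and 3.15 in TG, with no call between genotypes. The paralogs are alike in sequence, and whether their probes keep them apart was not tested. Abcc2 (MRP2), the exporter of conjugates into bile, passed nowhere and averaged between 9.27 and 9.63 over the 6 groups.

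**Figure D3:**
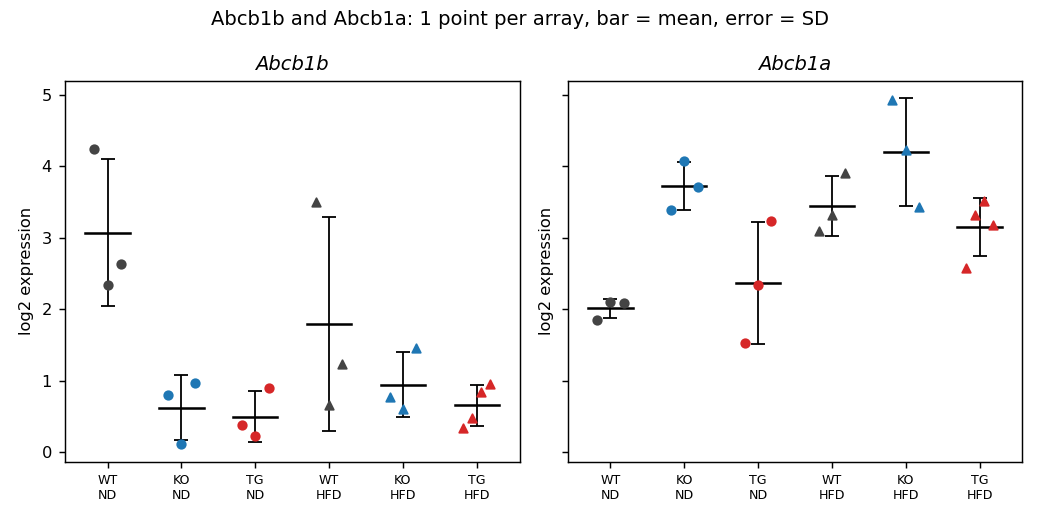
Log2 expression of Abcb1b (left) and Abcb1a (right) on the same vertical axis in the 6 groups, 1 point per array, with circles for ND, triangles for HFD, black bars for means and error bars for SD (n = 3, or 4 for TG HFD). Abcb1b lies at 2.34 or above in WT on ND and at 0.97 or below in KO and TG on ND, while Abcb1a lies at 3.39 or above in KO and at 2.10 or below in WT on ND.

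In TG livers 4 of the members were lower on HFD than on ND. The numbers in the titles fall in separate ranges for the diets, and if these mark separate cohorts, which the labels do not say, diet and cohort cannot be told apart in any genotype. On HFD the numbers also fall in separate ranges for the genotypes, and on ND the KO numbers lie apart from those of WT and TG. The same limit would then hold for those genotype contrasts. From ND to HFD, Abcc3 fell by 1.41 in TG (SE 0.28, adjusted p = 0.0207), Nqo1 by 0.99 (SE 0.23, adjusted p = 0.0435), Ephx1 by 0.91 (SE 0.21, adjusted p = 0.0443) and Gclc by 0.70 (SE 0.16, adjusted p = 0.0462), 4 of 10 members lower where 0.509% of all genes were (0.906% in either direction). In all 4 the arrays of the diets did not overlap, where 9.49% of all genes were so separated. The calls rest on the same arrays, so this separation is no separate evidence. Srxn1 had a difference of -0.66 without passing (adjusted p = 0.165). Abcc3 lost its call without TG ND replicate 1 or 2, Nqo1 without all arrays but TG HFD replicate 1, Gclc without all but TG HFD replicate 4, and Ephx1 without all but TG ND replicate 3 and TG HFD replicate 4 (highest adjusted p 0.118, 0.235, 0.212 and 0.242). The clock score moved with this contrast, from -1.19 on ND to 1.84 on HFD (exact permutation test, two-sided p = 0.0286, the lowest possible with 4 and 3 arrays; 0.18 adjusted over 9 comparisons). With the score as a covariate all 4 calls were lost (adjusted p = 0.999 each), at differences of -1.44, -0.53, -0.76 and -0.49 for Abcc3, Nqo1, Ephx1 and Gclc. The score ran from -1.64 to -0.82 on the TG ND arrays and from 1.59 to 2.27 on the TG HFD arrays. Score and diet thus hardly varied apart in TG, so the lost calls cannot separate them, and a part of the clock was not tested.

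In WT and in KO no member passed between the diets by the limma test, where 1.32% and 0.803% of all genes did; 3 members in each had an unadjusted p under 0.05. In WT the differences lay at 0.17 for Nqo1, 0.05 for Srxn1, -0.42 for Ephx1, -0.46 for Abcc3 and -0.43 for Gclc. In KO they lay at 0.59, 0.14, -0.57, -0.36 and 0.33 in the same order. Ephx1 and Abcc3 were therefore lower on HFD in every genotype by their means, yet past the threshold in TG alone. Their arrays did not overlap between the diets in any genotype. Such separation held for 15.1% of all genes in WT, 17.1% in KO and 9.49% in TG. The diet effect in TG minus that in WT was -1.16 for Nqo1 (SE 0.33, adjusted p = 0.274), -0.95 for Abcc3 (adjusted p = 0.588), -0.70 for Srxn1 (adjusted p = 0.555) and -0.48 for Ephx1 (adjusted p = 0.754). None of the 10 passed, where 0.221% of all genes did, and 4 had an unadjusted p under 0.05, so that a diet effect of another size in TG than in WT was not shown. For KO minus WT none passed either (0.825% of all genes did; 1 member at an unadjusted p under 0.05), with Gclc nearest at 0.75 (SE 0.24, adjusted p = 0.195).

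**Figure D4:**
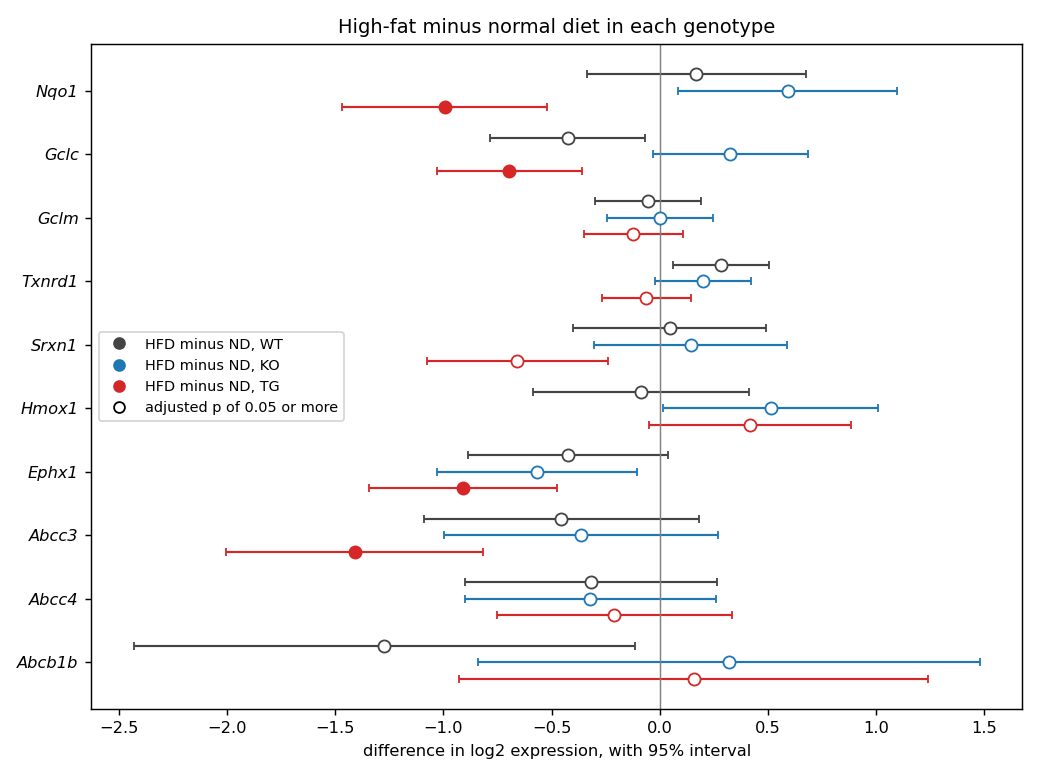
Difference in log2 expression between HFD and ND (horizontal axis, with 95% intervals taken 1 comparison at a time) for the 10 genes (vertical axis) in WT, KO and TG liver, with filled points for an adjusted p under 0.05. The 4 filled points are those of Nqo1, Gclc, Ephx1 and Abcc3 in TG, all below 0.

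**Figure D5:**
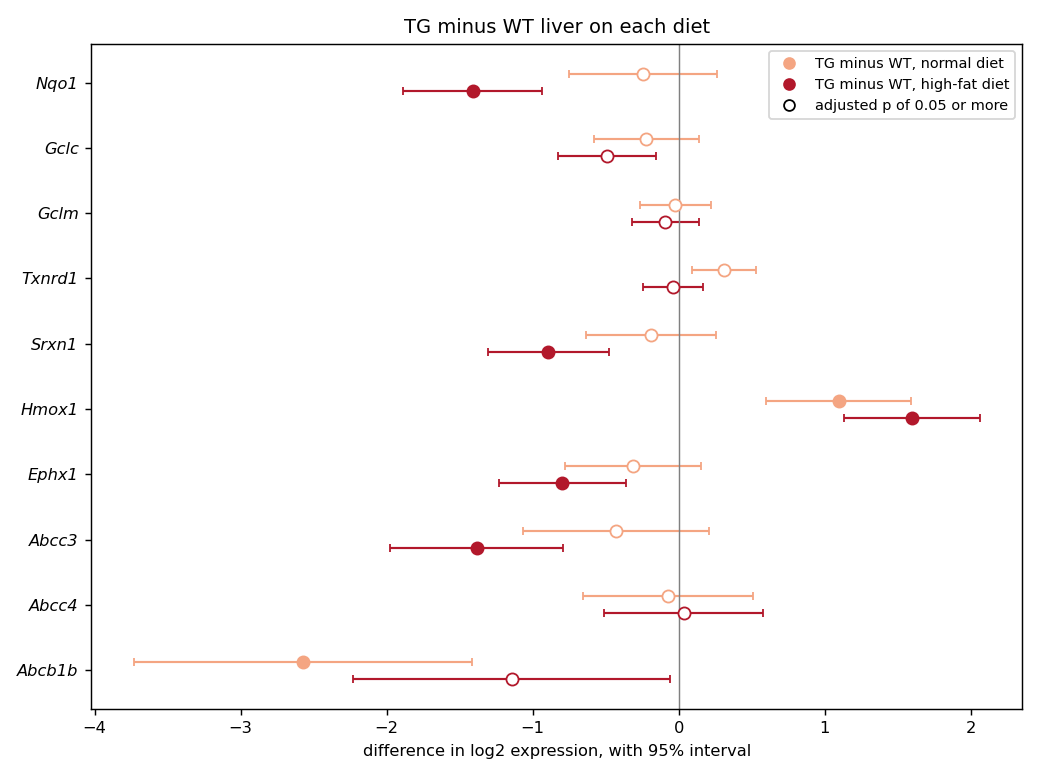
Difference in log2 expression between TG and WT liver (horizontal axis, with 95% intervals taken 1 comparison at a time) for the 10 genes (vertical axis) on ND (light) and HFD (dark), with filled points for an adjusted p under 0.05. On HFD Nqo1, Srxn1, Ephx1 and Abcc3 lie below 0 and Hmox1 above it, while on ND the filled points are those of Hmox1 and Abcb1b.

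Genotype contrasts other than TG against WT on HFD held fewer calls. On ND KO against WT had 2 of 10 lower (Gclc and Abcb1b), where 1.6% of all genes were lower and 2.98% changed either way. TG against WT had 1 higher and 1 lower (Hmox1 and Abcb1b), against 0.924% and 0.379% of all genes, 1.3% in all. In KO against TG the lower one was Hmox1, against 2.49% of all genes (4.2% either way), and on HFD 3 were higher (Nqo1, Srxn1 and Abcc3) and Hmox1 lower, against 1.46% and 0.897% (2.35% either way). KO against WT on HFD had none by the limma test (smallest adjusted p = 0.58; 1 at an unadjusted p under 0.05), where 0.338% of all genes passed. The clock score of KO on ND exceeded that of WT by 2.27 and that of TG by 2.86 (exact permutation test, two-sided p = 0.1 each, the lowest possible with 3 and 3 arrays). It was 1.46 or more on the KO ND arrays and 0.11 or less on those of WT and TG. Score and genotype can thus hardly be told apart in the KO contrasts on ND. With the score as a covariate 4 calls on ND were lost while the differences kept their sign. Abcb1b in KO against WT then differed by -3.88 (adjusted p = 0.305) and Hmox1 in KO against TG by -1.73, both larger than without it. Abcb1b in TG against WT differed by -2.20 (adjusted p = 0.105) and Gclc in KO against WT by -0.55 (adjusted p = 0.87), both smaller. Hmox1 in TG against WT kept its call (adjusted p = 0.0337). On HFD the score differed by -0.14 between TG and WT, and all 5 calls there held with it. Counted by arrays that do not overlap, 4 members stood apart between the diets in WT, 5 in KO and 7 in TG, against 15.1%, 17.1% and 9.49% of all genes. Between genotypes on ND the counts were 2 for KO against WT, 4 for TG against WT and 4 for KO against TG, against 18.1%, 15.8% and 21.1%. On HFD they were 0 for KO against WT and 6 for KO against TG, against 13.2% and 12.1%.

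Neither the transcription factor nor its sensor passed the test in any comparison. Nfe2l2, which encodes NRF2, had a mean of 6.55 ± 0.13 (SD, n = 3) in TG and 7.01 ± 0.13 (SD, n = 3) in WT on the normal diet. With the high-fat diet these means were 6.56 ± 0.33 (SD, n = 4) and 7.21 ± 0.35 (SD, n = 3). Its arrays did not overlap between TG and WT on either diet, as for 15.8% of all genes on ND and 12.3% on HFD. The differences of -0.45 and -0.65 did not pass (adjusted p = 0.419 and 0.0542 by limma). Keap1 averaged between 5.80 and 6.04 and Bach1 between 5.20 and 5.61 over the 6 groups, with no call. Of 10 measured genes of NRF2 and its regulators only Sqstm1, the autophagy receptor p62 that binds KEAP1, passed in any of the 9 comparisons. It fell in TG from ND to HFD by 0.55 (adjusted p = 0.0128 by limma). On ND it was lower in KO than in WT by 0.58 (adjusted p = 0.00598) and than in TG by 0.53 (adjusted p = 0.00877). Of all genes 0.509%, 1.6% and 2.49% were lower in these comparisons, in the same order.

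Some other known targets of NRF2 were lower in TG on HFD, and most did not pass. Of 28 measured genes of NADPH supply, conjugation and aldehyde or carbonyl clearance 7 were lower in TG than in WT on HFD and none higher, where 1.88% of all genes were lower. Their median was -0.38 and that of all genes 0.00. Those of smallest p were Ugdh (-0.76), which makes UDP-glucuronate, the aldehyde dehydrogenases Aldh1a1 (-0.74) and Aldh1a7 (-1.35), and the nucleotide phosphatase Entpd5 (-1.06), with adjusted p between 0.00399 and 0.00915. From ND to HFD 5 of the 28 fell in TG and none rose, with a median of -0.31, where 0.509% of all genes fell. Among them Gstm3 (-1.71), Gsta4 (-0.78) and Gstm1 (-1.11) are glutathione transferases, whose relatives can share probes, and Aox1 (-1.29) is an aldehyde oxidase. KO was higher than TG on HFD in 3 of the 28 (1.46% of all genes were), Ugdh (0.62), Entpd5 (0.86) and the biliverdin reductase Blvrb (0.92). The list of 28 was chosen with earlier results of these data known, so its counts are a description.

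Of 21 measured enzymes of glutathione and thioredoxin none passed between TG and WT on HFD, where 3.57% of all genes did. The median of the 21 was -0.15. From ND to HFD in TG the glutathione reductase Gsr fell by 0.54 (adjusted p = 0.0211 by limma), the one call of that list there. In that contrast 0.906% of all genes were called, 0.509% being lower. The glutaredoxin Glrx exceeded its WT ND level in KO ND (by 1.30, adjusted p = 0.000408), TG ND (0.85, adjusted p = 0.0215) and WT HFD (1.02, adjusted p = 0.00538), 3 comparisons with the same WT ND arrays. Peroxiredoxin 3, Prdx3, rose in KO against WT on ND by 0.53 (adjusted p = 0.0162). Among 15 other ABC exporters 1 was higher in TG than in WT on each diet, the cholesterol exporter Abcg1, a gene that macrophages express strongly. Its differences were 1.63 on ND (adjusted p = 0.000353 by limma) and 0.88 on HFD (adjusted p = 0.0194). Of all genes 0.924% were higher in TG on ND and 1.68% on HFD. The bile salt export pump Abcb11 was lower in KO than in WT on ND by 0.78 (adjusted p = 0.00184) and fell in TG from ND to HFD by 0.56 (adjusted p = 0.0348). On ND it was also lower in KO than in TG (-0.89, adjusted p = 0.000533 by limma).

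The genes nearest in pattern to each member were sought by Pearson r over the 19 arrays, among genes averaging 2 or more on the log2 scale, as a description of arrays that share groups, diets and genotypes. Nqo1 and Srxn1 were near each other (r = 0.86), Nqo1 also being near Prpf19 (0.88) and Plin3 (0.84). Ephx1 was nearest to Ugdh (0.94), then to Creg1 (0.92) and Abcc3 (0.89). Hmox1 was nearest to Siglec1 (0.93), a receptor of macrophages, Man2b1 (0.91) and Clec4f (0.91). Gclc was nearest to Mrnip (0.91), Psmd11 (0.90) and Crot (0.90), and Abcb1b to Rslcan18 (0.83), Ftcd (0.83) and Acat3 (0.82). After subtraction of each group's mean, which leaves the spread between arrays of a group, Gclc and Ephx1 had r = 0.88, Ephx1 and Abcc3 0.61, and Nqo1 and Srxn1 0.54. Hmox1 and Nqo1 had r = -0.595 over all arrays and 0.43 within groups.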

How the data were processed

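RNA of 19 whole livers was measured on 1-colour Affymetrix arrays. The values deposited are on a log2 scale, 1 for each probe set, already normalized by the authors; affy, RMA and limma are named in the submitters' processing notes with no version, role or order, and the log base was inferred from the range of the values. Of 41345 probe sets 23521 have 1 gene symbol in the platform annotation; 1082 symbols had more than 1, for which the probe set of highest mean was taken, leaving 22180 genes. Dim genes were kept. All arrays were fitted by limma 3.58.1 in R 4.3.3 as 6 group means (13 residual and 4.76 prior degrees of freedom), giving 9 comparisons of 2 groups and 2 interactions. P-values are two-sided, adjusted by Benjamini-Hochberg over all genes in each comparison, with calls under 0.05. The clock score was compared by exact permutation tests. Alternatives were array scaling, probe set choice, a floor on the mean, prior and array weights, the clock score as covariate, the compared arrays alone, and leaving out each array. The fit was tested on simulated data. Named were all members, up to 4 called genes of smallest p per pathway list and comparison, some regulators whatever their value, and the 3 genes nearest in pattern. Members and lists were chosen with earlier results of these data known. Of the lists, genes not matched to a probe set with 1 symbol were left out. Arrays have no read depth, and their number limits the precision.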

Additional observations from a re-analysis of the deposited data

Results flagged for a closer look

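In TG on HFD, the only group with enough arrays to be examined for a single far value, Abcc4 on replicate 3 read 1.42 while the other 3 arrays lay between 1.91 and 1.94, and the gap was a larger share of the range than its 95% critical value. Chance flags about 1 in 20 groups, and 10 genes were examined.

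Arrays of the diets did not overlap for 15.1% of all genes in WT, 17.1% in KO and 9.49% in TG. Gclc was among these genes in each genotype, and its differences between HFD and ND had opposite signs. They were -0.43 in WT (adjusted p = 0.333 by limma), 0.33 in KO (adjusted p = 0.506) and -0.70 in TG (adjusted p = 0.0462), so that only the last passed. The difference between KO and WT was tested and did not pass (0.75, adjusted p = 0.195 by limma). The difference between KO and TG was not tested.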

How the results depend on the processing

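Of the 18 calls among the members, 3 were kept under all settings tried: Nqo1 and Hmox1 in TG against WT on HFD, and Nqo1 in KO against TG on HFD. No called value changed sign, and all 18 calls held with arrays centred on their medians and with another quantile normalization of the already normalized values. They also held with the mean of all probe sets of a gene. That setting could not alter a member's values, since each member had 1 probe set. With the clock score as a covariate 8 calls were lost, and with the arrays of the compared groups alone 11. The cause was not tested beyond the smaller number of arrays in the latter. Between the diets in TG, and between KO and the other genotypes on ND, the score did not overlap. There the covariate could hardly be told apart from the contrast. The lost calls kept their sign with the score, and 3 were as large or larger (Abcc3 in TG between diets -1.44, Abcb1b in KO against WT -3.88 and Hmox1 in KO against TG -1.73 on ND). The count of members called then became 0 with the score for HFD against ND in TG, KO against WT on ND and KO against TG on ND, and 1 for TG against WT on ND. With the compared arrays alone it was 0 for HFD against ND in TG, 1 for KO against WT and 1 for TG against WT on ND, and 2 for TG against WT and 2 for KO against TG on HFD. With genes of a mean log2 value of at least 2 alone it was 1 for KO against WT and 1 for TG against WT on ND, since Abcb1b and Abcc4 are below that level. Without both arrays of lowest correlation, a choice made after seeing the data, it was 1 for HFD against ND in WT and 1 in TG. Leaving out each array in turn gave 0 to 1 for HFD against ND in WT, 0 to 3 for HFD against ND in TG, 0 to 2 for KO against WT on ND and for TG against WT on ND, 2 to 6 for TG against WT on HFD, and 3 to 5 for KO against TG on HFD. Array weights and a trended, robust prior moved no count by over 1.5 times, though Ephx1 in TG against WT on HFD lost its call with array weights and Gclc in KO against TG on HFD gained one with that prior. No paired analysis was possible because the labels give no replicate numbers shared between groups. Values near 0 on the log2 scale are close to background, which limits Abcb1b and Abcc4.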

Other observations

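Of 9 stellate cell and fibroblast markers 2 were higher in TG than in WT on ND and 1 on HFD, with medians of 0.37 and 0.29. Of 7 lymphocyte markers 1 was higher in TG than in WT on HFD, and 2 were lower in KO than in TG on ND. Of 7 endothelial markers 1 was higher in TG than in WT on HFD, and of 5 cholangiocyte markers 1 was lower in KO than in WT on ND. None of 6 neutrophil markers passed in any comparison. Of all genes 0.924% were higher in TG than in WT on ND and 1.68% on HFD. On ND 2.49% of all genes were lower in KO than in TG, and 1.6% lower in KO than in WT.

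Further genes around NRF2 passed outside the contrasts above. Osgin1, an oxidative stress-induced growth inhibitor, was lower in KO on ND than in WT by 1.26 (adjusted p = 0.0415 by limma) and than in TG by 1.65 (adjusted p = 0.0056). Abcc1 (MRP1) was lower in KO than in TG on ND by 0.99 (adjusted p = 0.014), at means of 1.04 and 2.03, the former near the array medians and so near background. Gpx4, the phospholipid hydroperoxidase, was higher in KO than in TG on ND by 0.46 (adjusted p = 0.0383). Gsta4 fell in WT from ND to HFD by 0.56 (adjusted p = 0.0287). The diet effect on Glrx in KO was 1.24 below that in WT (difference -1.24, adjusted p = 0.0264).

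The genes nearest in pattern over the 19 arrays were Tnks (r = 0.81), Pdcd7 and Slc25a46 for Gclm, Mrm3 (0.80), Aadac and Qpct for Txnrd1, Mettl26 (0.91), Gm2788 and Ces1e for Abcc3, and Sec11c (0.80), Chmp1a and Limk1 for Abcc4.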
